A study of Rattus norvegicus with 12 samples.

Results

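MHC class II genes encode the molecules with which antigen-presenting cells show peptides from engulfed proteins to CD4 T cells. The set described here holds 8 rat genes, namely Cd74, RT1-Da, RT1-Db1, RT1-Ba, RT1-Bb, RT1-DMa, RT1-DMb and Ciita, and its probes were found by gene name among the 41012 non-control probes of a rat whole-genome array. Under the array's own names 5 of the 8 genes had 10 probes. RT1-DMa and Ciita stand on the array under the older names Hla-dma and C2ta, and with them 7 genes had 12 probes. No probe was found for RT1-DMb, which was not analysed here. A probe was tested if the scanner software rated its Cy5 signal well above background on 3 or more of the 12 arrays. That held for 11 of the 12 probes and left all 7 genes, among 36097 kept probes and 14676 named genes. Where a gene had several kept probes, the brightest stood for it.

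The arrays were made from prostates of male rats aged 10 weeks, in 4 groups of 5 to 6 animals with 3 arrays each. The obstruction/Eviprostat group (called operated in the labels) had a partial bladder outlet obstruction, made with a rubber ring tied around the upper urethra, and then Eviprostat, given in doses of 18 mg/kg that added up to 36 mg/kg daily. Eviprostat is a plant-based medicine for benign prostatic enlargement. The obstruction/vehicle group had the same operation and 0.1% Tween 80 in place of the drug. The sham/Eviprostat group had a sham operation and the same drug doses, and the sham/vehicle group a sham operation and vehicle. Treatment lasted 5 days in every group and tissue was taken 2 h after the last dose. Dosing began the day after surgery in obstructed rats but 5 days after surgery in sham rats, so obstruction and time since surgery cannot be told apart. Tissue was pooled within a group according to the labelling protocol, although the labels call the 3 arrays biological replicates. The p-values therefore measure the spread between arrays, which may be technical, and not that between rats. The strain is not given in the sources used here.

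Each array carried the RNA of its own group in Cy5 and sham/vehicle RNA in Cy3, so every value below is a log2 ratio of Cy5 over sham/vehicle Cy3, and groups were compared through these ratios with limma. In the sham/vehicle group Cy5 and Cy3 held the same kind of RNA, so its values show the background of the method. The labelling protocol gives 300 ng of RNA per group except for sham/vehicle, where 1500 ng was labelled, so RNA input cannot be told apart from the difference between sham/vehicle and the rest. The 12 arrays lay on 3 slides with 1 array of each group per slide. Replicate numbers follow slides, and slide 1 was scanned on another day and had the dimmest Cy5 signal. Each group kept 1 place on the slides, and place cannot be told apart from group. The share of spots with a Cy5 signal rated above background was 70.9% to 88.4% per array.

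A class II molecule is a pair of an alpha and a beta chain. In the rat the RT1.D pair is encoded by RT1-Da and RT1-Db1 and the RT1.B pair by RT1-Ba and RT1-Bb, the counterparts of human HLA-DR and HLA-DQ. New pairs leave the endoplasmic reticulum with the invariant chain, the product of Cd74, which blocks the peptide groove until endosomal proteases cut it away, and the DM molecule, for which RT1-DMa encodes the alpha chain, then exchanges its remnant for a peptide. Their promoters share an X box and a Y box, bound by the RFX complex and by NF-Y, and the coactivator encoded by Ciita switches these genes on in dendritic cells, B cells and macrophages, and in other cells after interferon gamma.

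The promoters are shown because 5 of these genes moved in the same direction in the leading comparisons below, obstruction under vehicle and Eviprostat in obstructed rats. RefSeq promoters (GRCr8) were at hand for 6 of the 8 genes, all but RT1-DMb and Ciita. A search of the 250 bases before the transcription start covered both strands. GATTGG, the Y box form read on the coding strand, was found on either strand in 5 of the 6. ACNGATG, a form of the end of the X box, was found on either strand in 4 of the 6. Cd74, which moved with the others, held neither motif in this window, and RT1-Ba, which passed neither leading test, held GATTGG but not ACNGATG. Other spellings of either box were not searched, so a missing motif does not show that the box itself is missing. Over all 33469 promoters of the table, 13.3% held GATTGG and 8.55% held ACNGATG on either strand. Both in that order on the gene's own strand, with starts 24 to 32 bases apart, occurred in 7 promoters or 0.0209%. Those 7 belonged to RT1-Da, RT1-Db1, RT1-Bb, RT1-DMa, RT1-DOb, RT1-Db2 and Aanat. The motif letters and the spacing were set after these promoters had been read, so the counts are a description. Whether the motifs bear on the differences between groups was not tested. The windows below run 5′ to 3′ on the coding strand, with ACNGATG (where it stands at that spacing) and GATTGG in capitals. The RT1-Da window lies at chr20:4515323-4515378 on the plus strand, with GATTGG 50 bases before the start. That of RT1-Db1 lies at chr20:4560230-4560285 on the minus strand, that of RT1-Ba at chr20:4576971-4577026 on the plus strand, that of RT1-Bb at chr20:4604167-4604222 on the minus strand and that of RT1-DMa at chr20:4712387-4712442 on the minus strand.
RT1-Da: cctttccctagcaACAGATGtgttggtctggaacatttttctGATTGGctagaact
RT1-Db1: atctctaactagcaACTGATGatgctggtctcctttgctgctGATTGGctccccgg
RT1-Ba: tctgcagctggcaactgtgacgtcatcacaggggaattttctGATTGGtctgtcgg
RT1-Bb: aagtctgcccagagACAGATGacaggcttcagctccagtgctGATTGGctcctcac
RT1-DMa: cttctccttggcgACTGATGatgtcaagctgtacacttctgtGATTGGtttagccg

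With obstruction under vehicle, 5 of the 7 measured class II genes were higher than in sham/vehicle and 0 were lower. The 5 were Cd74, both chains of RT1.D, the beta chain of RT1.B and the alpha chain of DM, and their folds over sham/vehicle lay between 2.00 and 2.40. Among all kept probes 7.16% were higher and 4.45% lower in that comparison, and among named genes 9.94% were higher. The median log2 difference was 1.04 over the 7 genes and 0.00 over all named genes. In obstructed rats the same 5 genes were lower with Eviprostat than with vehicle and 0 were higher, against 5.89% of all kept probes lower and 3.9% higher. With the slide as a block the 5 genes were called in both comparisons, against 13.3% of kept probes higher and 11.9% lower with obstruction under vehicle, and 11.4% higher and 12.1% lower with Eviprostat in obstructed rats. The median there was -1.02 over the 7 genes. These comparisons share the obstruction/vehicle arrays, so their opposite signs are not independent of each other. In bulk tissue, fewer cells of a type and less RNA per cell cannot be told apart.

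**Figure D1:**
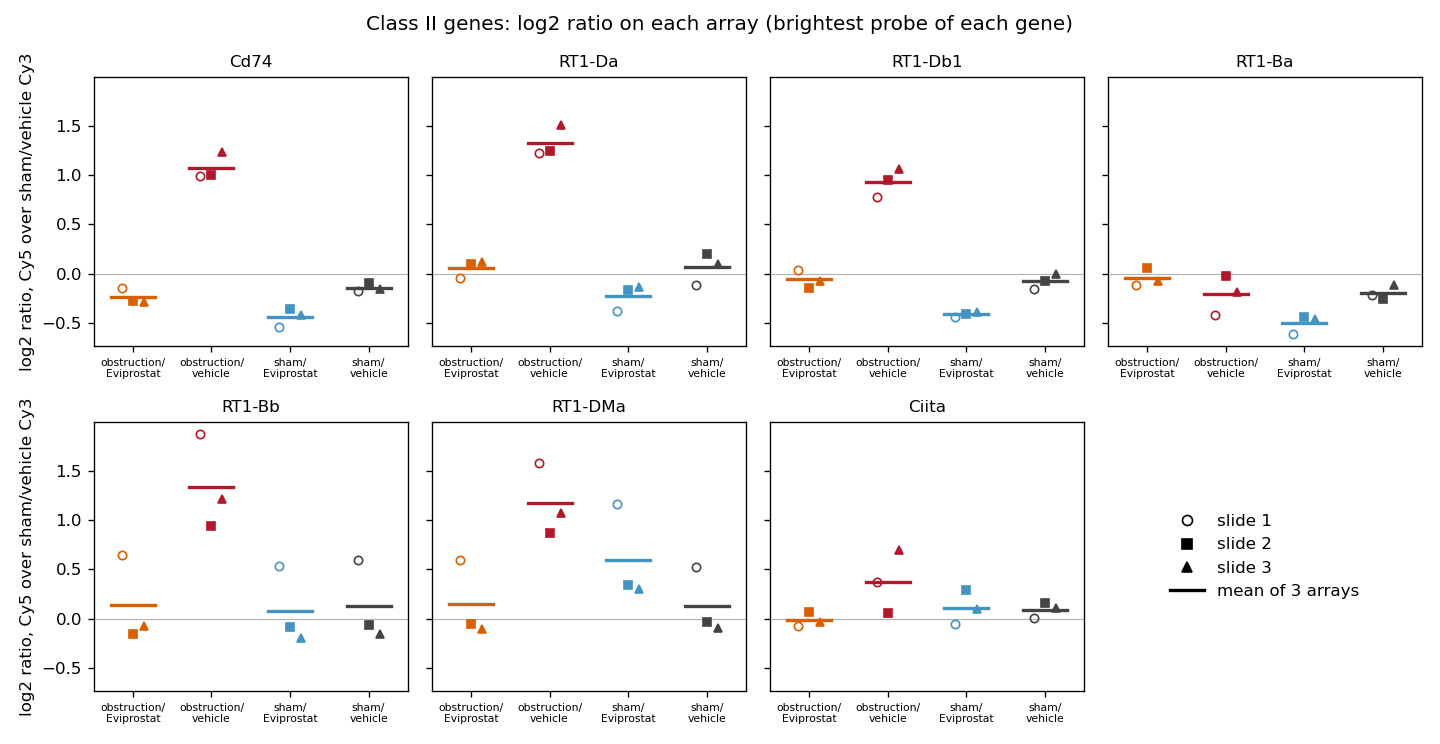
Log2 ratio of Cy5 over sham/vehicle Cy3 (vertical axis) of the 7 measured class II genes on each of the 12 arrays, by group (horizontal axis); symbols mark the slide and bars the mean of 3 arrays. For Cd74, RT1-Da, RT1-Db1 and RT1-Bb the 3 obstruction/vehicle arrays lie above all other arrays, RT1-DMa overlaps with sham/Eviprostat, and RT1-Ba and Ciita show no such step. The share of all probes with such a step was not counted.

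Cd74, the invariant chain gene, was measured by 1 probe at chr18:56837700-56837759 (rat build rn3, as the array files give it; the files do not say which exon or untranslated part a probe lies in). Its log2 ratio was -0.15, -0.28 and -0.29 on the obstruction/Eviprostat arrays, 0.99, 1.00 and 1.23 on the obstruction/vehicle arrays, -0.54, -0.36 and -0.42 on the sham/Eviprostat arrays and -0.18, -0.09 and -0.16 on the sham/vehicle arrays. The obstruction/vehicle arrays stood above every other array and the sham/Eviprostat arrays below all sham/vehicle arrays. The share of all probes whose obstruction/vehicle arrays stand apart was not counted, here or for the genes below. Cd74 rose 2.32-fold with obstruction under vehicle, a log2 difference of 1.22 ± 0.09 (SE; limma adjusted p = 4.29e-06). In obstructed rats it fell 2.49-fold with Eviprostat, a log2 difference of -1.32 ± 0.09 (limma adjusted p = 3.02e-06). The order of the group means was obstruction/vehicle at 1.07 ± 0.14, sham/vehicle at -0.14 ± 0.05, obstruction/Eviprostat at -0.24 ± 0.08 and sham/Eviprostat at -0.44 ± 0.09 (SD, n = 3 arrays each), and the obstruction/Eviprostat arrays overlapped with the sham/vehicle arrays.

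RT1-Da, the RT1.D alpha chain gene, gave the same picture from its brightest probe, at chr20:4641331-4641390. It had -0.04, 0.10 and 0.12 on the obstruction/Eviprostat arrays, 1.22, 1.25 and 1.51 on the obstruction/vehicle arrays, -0.38, -0.17 and -0.13 on the sham/Eviprostat arrays and -0.11, 0.20 and 0.10 on the sham/vehicle arrays. Only the obstruction/vehicle arrays were above 1, and the obstruction/Eviprostat arrays lay within the range of the sham/vehicle arrays. RT1-Da rose 2.40-fold with obstruction under vehicle (log2 difference 1.26 ± 0.11, SE, limma adjusted p = 1.8e-05) and fell 2.41-fold with Eviprostat in obstructed rats (-1.27 ± 0.11, limma adjusted p = 2.37e-05). A second probe at chr20:4638931-4638990 passed both tests too, with log2 differences of 1.20 and -1.07.

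RT1-Db1, the RT1.D beta chain gene, had its brightest probe at chr20:4672904-4672963. Its log2 ratio was 0.04, -0.14 and -0.07 on the obstruction/Eviprostat arrays, 0.78, 0.95 and 1.06 on the obstruction/vehicle arrays, -0.44, -0.41 and -0.39 on the sham/Eviprostat arrays and -0.16, -0.07 and 0.00 on the sham/vehicle arrays. Again the obstruction/vehicle arrays stood clear of the rest, and all sham/Eviprostat arrays were the lowest. RT1-Db1 rose 2.00-fold with obstruction under vehicle (log2 difference 1.00 ± 0.09, SE, limma adjusted p = 2.03e-05) and fell 1.98-fold with Eviprostat in obstructed rats (-0.99 ± 0.09, limma adjusted p = 3.12e-05). The second probe, at chr20:4673637-4673696, passed both tests with 0.80 and -1.03. The other probe, at chr20:4677277-4677336, passed neither, with 0.41 (limma adjusted p = 0.157) and -0.42 (limma adjusted p = 0.154).

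The 2 chains of RT1.B differed. RT1-Bb, the beta chain gene, was measured by its brightest probe at chr20:4733189-4733248 with log2 ratios of 0.65, -0.16 and -0.07 on the obstruction/Eviprostat arrays, 1.87, 0.94 and 1.21 on the obstruction/vehicle arrays, 0.53, -0.08 and -0.20 on the sham/Eviprostat arrays and 0.60, -0.06 and -0.16 on the sham/vehicle arrays. In every group the slide 1 array was the highest, and the obstruction/vehicle arrays still did not overlap with any other group. RT1-Bb rose by 1.22 ± 0.30 on the log2 scale with obstruction under vehicle (SE, limma adjusted p = 0.02) and fell 2.30-fold with Eviprostat in obstructed rats (-1.20 ± 0.30, limma adjusted p = 0.0242). Within slides 1, 2 and 3 the obstruction/vehicle array exceeded the sham/vehicle array by 1.28, 1.00 and 1.37, and with the slide as a block the limma adjusted p was 8.68e-07. Its second probe, at chr20:4730760-4730810, passed neither test (0.38, limma adjusted p = 0.248, and -0.40, limma adjusted p = 0.243), so the probes of RT1-Bb disagree in size.

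RT1-Ba, the alpha chain gene of the same pair, passed neither test. Its only kept probe was designed on an l haplotype sequence, without a genome position in the files. Its log2 ratio was -0.11, 0.06 and -0.07 on the obstruction/Eviprostat arrays, -0.42, -0.02 and -0.19 on the obstruction/vehicle arrays, -0.61, -0.44 and -0.46 on the sham/Eviprostat arrays and -0.22, -0.26 and -0.11 on the sham/vehicle arrays. The obstruction/vehicle arrays enclosed the sham/vehicle arrays, and the sham/Eviprostat arrays were the lowest. Its log2 difference was -0.01 ± 0.11 for obstruction under vehicle (SE, limma adjusted p = 0.958) and 0.17 ± 0.11 for Eviprostat in obstructed rats (limma adjusted p = 0.391). The other RT1-Ba probe, at chr20:4701200-4701259, was well above background on 0 of 12 arrays and so gave no measurement. RT1 genes differ in sequence between rat strains, and how well either probe pairs with the alleles of these rats was not tested.

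RT1-DMa, the DM alpha chain gene, had a probe spanning chr20:4843931-4844293. It had 0.60, -0.05 and -0.10 on the obstruction/Eviprostat arrays, 1.58, 0.87 and 1.07 on the obstruction/vehicle arrays, 1.16, 0.34 and 0.30 on the sham/Eviprostat arrays and 0.52, -0.03 and -0.09 on the sham/vehicle arrays. Slide 1 was the highest in every group. The obstruction/vehicle arrays did not overlap with the sham/vehicle or obstruction/Eviprostat arrays but did with the slide 1 array of sham/Eviprostat. RT1-DMa rose 2.05-fold with obstruction under vehicle (log2 difference 1.04 ± 0.28, SE, limma adjusted p = 0.0296) and fell 2.03-fold with Eviprostat in obstructed rats (-1.02 ± 0.28, limma adjusted p = 0.0359). Within slides 1, 2 and 3 the obstruction/vehicle array exceeded the sham/vehicle array by 1.06, 0.90 and 1.15, and the blocked fit gave limma adjusted p = 2.77e-06.

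Ciita, the coactivator gene of class II promoters, was dim: its probe at chr10:5087172-5087231 was well above background on 1 of 3 obstruction/Eviprostat arrays, 3 of 3 obstruction/vehicle arrays, 2 of 3 sham/Eviprostat arrays and 2 of 3 sham/vehicle arrays. Its log2 ratio was -0.07, 0.07 and -0.03 on the obstruction/Eviprostat arrays, 0.37, 0.06 and 0.70 on the obstruction/vehicle arrays, -0.05, 0.29 and 0.10 on the sham/Eviprostat arrays and 0.01, 0.16 and 0.11 on the sham/vehicle arrays. The highest 2 values belonged to obstruction/vehicle, whose other array lay among the other groups. The log2 difference was 0.28 ± 0.14 for obstruction under vehicle (SE, limma adjusted p = 0.254) and -0.38 ± 0.14 for Eviprostat in obstructed rats (limma adjusted p = 0.126). Without obstruction/vehicle replicate 2 these values were 0.44 (limma adjusted p = 0.0298) and -0.54 (limma adjusted p = 0.0118). In each comparison 6 of 7 class II genes then passed. Calls also rose over all kept probes, to 7196 and 6374 from 4191 and 3536, so the gain was not particular to class II genes. The processing changed the Ciita values too. With the Cy5 level alone they were 0.46 (limma adjusted p = 0.00767) and -0.56 (limma adjusted p = 0.00274), where 6281 and 5374 probes were called. With the scanner software's own log ratio they were 1.44 (limma adjusted p = 0.015) and -1.82 (limma adjusted p = 0.00472), where 14481 and 13521 probes were called.

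**Figure D2:**
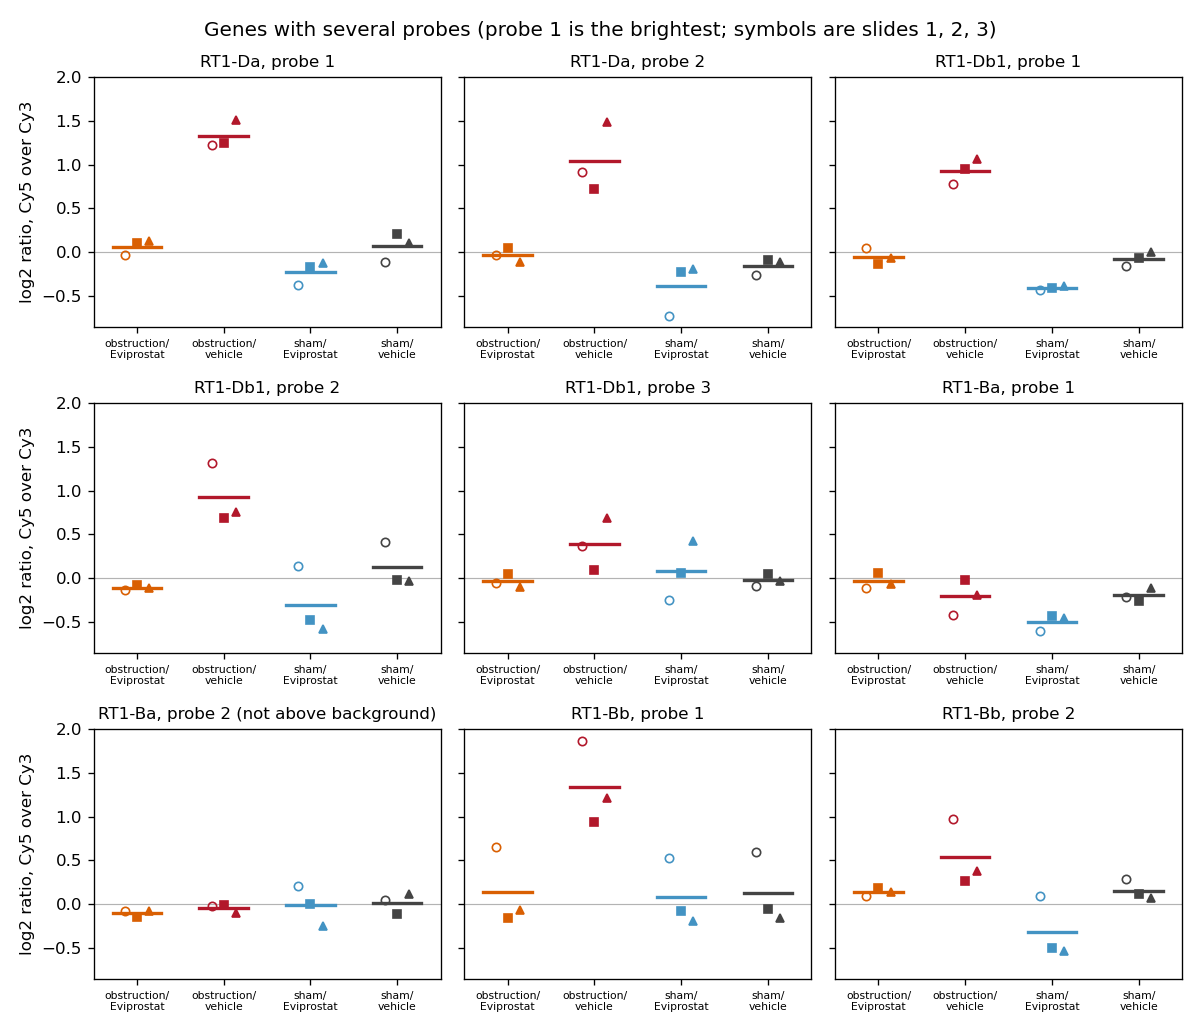
Log2 ratio of Cy5 over Cy3 (vertical axis) on each array for each probe of RT1-Da, RT1-Db1, RT1-Ba and RT1-Bb, by group (horizontal axis), with bars at the mean of 3 arrays and symbols for the slides. The obstruction/vehicle arrays stand out for both RT1-Da probes, the brighter 2 RT1-Db1 probes and the brightest RT1-Bb probe, not for either RT1-Ba probe.

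The 5 calls in each comparison did not hold under every alternative. When each array was only centred on its median in place of loess, the log2 differences for obstruction under vehicle were 1.30 for Cd74, 1.36 for RT1-Da and 1.08 for RT1-Db1, but limma adjusted p was 0.0931, 0.102 and 0.172, and 2 of 7 genes, RT1-Bb and RT1-DMa, were higher; for Eviprostat in obstructed rats the same 3 genes had limma adjusted p of 0.082, 0.117 and 0.207. RT1-Bb and RT1-DMa lost their calls for obstruction under vehicle, leaving 3 of 7 genes higher, without obstruction/vehicle replicate 1 or 3 or sham/vehicle replicate 2 or 3, and for Eviprostat in obstructed rats, leaving 3 of 7 lower, without obstruction/Eviprostat replicate 2 or 3 or obstruction/vehicle replicate 1 or 3. Calls over all kept probes fell in these runs too. They were 2403 to 2824, from 4191, for obstruction under vehicle and 1890 to 2369, from 3536, for Eviprostat in obstructed rats. RT1-DMa also missed the test for Eviprostat in obstructed rats, leaving 4 of 7 lower, without sham/vehicle replicate 2 (limma adjusted p = 0.0523) or 3 (limma adjusted p = 0.0501). With the Cy5 level alone RT1-DMa missed the test for obstruction under vehicle (0.92, limma adjusted p = 0.0616), and with only the groups compared in the fit RT1-Bb missed it for Eviprostat in obstructed rats (limma adjusted p = 0.052).

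Whether the drug also changed class II genes without obstruction was asked in the sham rats. By limma 0 of 7 genes passed the test there, against 0.87% of kept probes higher and 0.659% lower. An unadjusted p under 0.05 was found for 4 of the 7. The share of all probes at that unadjusted threshold was not counted, here or below. By their brightest probes, Cd74, RT1-Da, RT1-Db1 and RT1-Ba were all lower on every sham/Eviprostat array than on any sham/vehicle array, which held for 10.5% of all probes. Their log2 differences were -0.30 for Cd74 (limma adjusted p = 0.188), -0.29 for RT1-Da (0.357, adjusted p, limma), -0.34 for RT1-Db1 (0.114, adjusted p, limma) and -0.31 for RT1-Ba (0.266, adjusted p, limma). On the second RT1-Da probe and the other RT1-Db1 probes the sham groups overlapped, with log2 differences of -0.23, -0.42 and 0.10. With the slide as a block, RT1-Db1 was lower (limma adjusted p = 0.0319) and RT1-DMa was higher (log2 difference 0.46, limma adjusted p = 0.00591), against 3.11% of kept probes lower and 3.21% higher in that fit. RT1-DMa was 0.64, 0.37 and 0.38 higher with the drug within slides 1, 2 and 3.

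The drug effect in obstructed rats was set against that in sham rats by the interaction. It was lower in obstructed rats for 4 of 7 genes and higher for none, against 4.89% of kept probes lower and 3.78% higher. The difference between the drug effects was -1.02 ± 0.13 for Cd74 (SE, log2, limma adjusted p = 0.000472), -0.98 ± 0.16 for RT1-Da (limma adjusted p = 0.00283), -0.65 ± 0.13 for RT1-Db1 (limma adjusted p = 0.0093) and -1.49 ± 0.39 for RT1-DMa (limma adjusted p = 0.0351). For RT1-DMa the drug difference was -1.02 in obstructed rats and 0.46 in sham rats. The other probes of RT1-Da and RT1-Db1 did not pass the interaction test. The second RT1-Da probe had -0.84 (limma adjusted p = 0.0706), and the other RT1-Db1 probes had -0.61 and -0.52 (limma adjusted p = 0.252 and 0.226). Median centring ended the calls of Cd74, RT1-Da and RT1-Db1 (limma adjusted p = 0.488, 0.577 and 0.8), and that of RT1-DMa was lost without any 1 of 7 arrays. With the slide as a block, RT1-Bb joined the lower genes (-1.16, limma adjusted p = 3.57e-05) and RT1-Ba was higher (0.48, limma adjusted p = 0.0149), against 11.4% of kept probes lower and 10.5% higher.

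Obstruction was also compared under Eviprostat. RT1-Ba was higher in obstruction/Eviprostat than in sham/Eviprostat (0.47 ± 0.11, SE, log2, limma adjusted p = 0.0458), the only 1 of 7 genes, against 0.97% of kept probes higher and 1.31% lower. At an unadjusted p under 0.05 there were 3 of 7. The RT1-Ba call was lost when any 1 of 10 of the 12 arrays was left out. With the slide as a block 3 genes were higher, namely RT1-Ba, RT1-Da (0.29, limma adjusted p = 0.0425) and RT1-Db1 (0.36, limma adjusted p = 0.0194), and RT1-DMa was lower (-0.45, limma adjusted p = 0.00525), against 4.43% of kept probes higher and 4.32% lower. Between obstruction/Eviprostat and sham/vehicle 0 of 7 genes passed limma's test, 0 did with the slide as a block, and 0 had an unadjusted p under 0.05, against 0.175% of kept probes higher and 0.119% lower without the block and 1.48% and 1% with it. Their differences lay between -0.10 and 0.16.

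**Figure D3:**
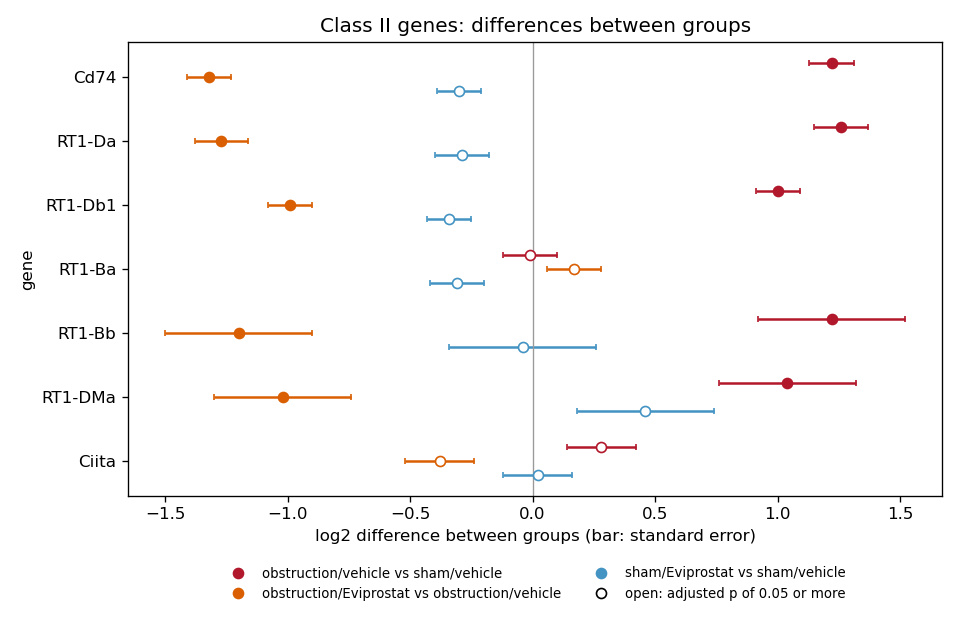
Log2 difference between groups (horizontal axis, with standard error) for each measured class II gene (vertical axis) in 3 comparisons, namely obstruction under vehicle, Eviprostat in obstructed rats and Eviprostat in sham rats; filled points have a limma adjusted p under 0.05. Cd74, RT1-Da, RT1-Db1, RT1-Bb and RT1-DMa lie between 1.00 and 1.26 for obstruction under vehicle and between -1.32 and -0.99 for Eviprostat in obstructed rats, and RT1-Ba and Ciita lie near 0 or short of the test.

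Genes around class II presentation were counted from lists chosen with earlier results of these data known. For these and the marker lists below, the shares over all named genes were 9.94% higher and 5.15% lower with obstruction under vehicle. With Eviprostat in obstructed rats they were 4.32% higher and 8.09% lower. With the slide as a block, 13.3% of kept probes were higher and 11.9% lower in the former comparison, and 11.4% and 12.1% in the latter. The other class II subunit genes, RT1-DOa and RT1-DOb, encode the DO molecule that holds DM back. Neither passed limma's test, and 0 of 2 had an unadjusted p under 0.05, with log2 differences of 0.15 and -0.12 for obstruction under vehicle. The RT1-DOb promoter holds both motifs. Among 10 genes that act on the invariant chain, antigens or class II molecules in endosomes and lysosomes (proteases, a protease inhibitor, a reductase and ubiquitin ligases), 4 were higher with obstruction under vehicle and 6 lower with Eviprostat in obstructed rats. Ctss, the cathepsin that removes the last part of the invariant chain, had log2 ratios of 0.29, 0.23 and 0.32 on the obstruction/Eviprostat arrays, 1.70, 1.83 and 2.19 on the obstruction/vehicle arrays, -0.13, 0.26 and 0.20 on the sham/Eviprostat arrays and -0.42, 0.14 and 0.14 on the sham/vehicle arrays. Its obstruction/vehicle arrays stood above all others. Ctss rose by 1.95 with obstruction under vehicle and fell by 1.63 with Eviprostat in obstructed rats (log2 differences, limma adjusted p = 1.19e-05 and 6.85e-05).

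The other 3 that rose were Ctsb (2.78), Lgmn (2.60) and Ctsl (1.24), all endosomal or lysosomal proteases, on the log2 scale. Ifi30, which reduces disulfide bonds of proteins before they are cut, had 0.53 (limma adjusted p = 0.269). The E3 ligases Marchf1 and Marchf8, which send class II molecules to lysosomes, had 0.16 and -0.30, and neither passed the test. With the slide as a block 7 of these 10 genes were higher and 1 was lower.

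Genes that act on the class II promoter did not move as a group. Of 9 measured, 0 passed limma's test for obstruction under vehicle (3 at an unadjusted p under 0.05) and 1, Ep300, a histone acetyltransferase, was lower with Eviprostat in obstructed rats (-0.39, limma adjusted p = 0.0204). Rfx5 and Rfxank, subunits of the RFX complex, had log2 differences of -0.12 and 0.22 for obstruction under vehicle, and Rfxap had no probe by name. With the slide as a block, 2 of the 9 were higher and 1 lower for obstruction under vehicle.

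On the way from interferon gamma to Ciita, 3 of 10 genes were higher with obstruction under vehicle and 2 were lower with Eviprostat in obstructed rats, and with the slide as a block these counts were 6 and 7. Ifngr2, a chain of the interferon gamma receptor, rose by 1.48 and fell by 1.51 on the log2 scale, and Irf1, a transcription factor that binds a Ciita promoter, rose by 1.40 and fell by 1.42. Jak2, a kinase of that receptor, rose by 1.26 and had -0.46 with Eviprostat in obstructed rats (limma adjusted p = 0.0581). It was also higher in obstruction/Eviprostat than in sham/vehicle (0.81, limma adjusted p = 0.033). Ifngr1, the other receptor chain, had 0.02, and Spi1, a myeloid transcription factor, had 0.72 (limma adjusted p = 0.0551). Ifng itself had -0.07 and was well above background on 1 of 3 obstruction/Eviprostat arrays and on 2 of 3 arrays in each other group. Irf8 had no probe by name.

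Of 5 costimulatory genes, Cd40 alone passed, with 1.04 for obstruction under vehicle and -1.01 for Eviprostat in obstructed rats (log2, limma adjusted p = 0.00524 and 0.00754). With slides 2 and 3 only, 0 of the 5 passed limma's test in either comparison. Calls over all kept probes did not fall in that fit. They were 4375, from 4191, for obstruction under vehicle and 4320, from 3536, for Eviprostat in obstructed rats. These totals also apply to the marker lists below where slides 2 and 3 only are named. Cd80 and Cd86, the ligands of CD28, had 0.03 and -0.05. The 3 genes of the CD74 surface complex moved together with Cd74. Mif, its ligand, rose by 0.53 and fell by 0.72, Cd44, its signalling partner, rose by 2.05 and fell by 2.05, and Cxcr4, a MIF receptor, rose by 1.03 and fell by 0.92 (log2 differences for obstruction under vehicle and for Eviprostat in obstructed rats).

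**Figure D4:**
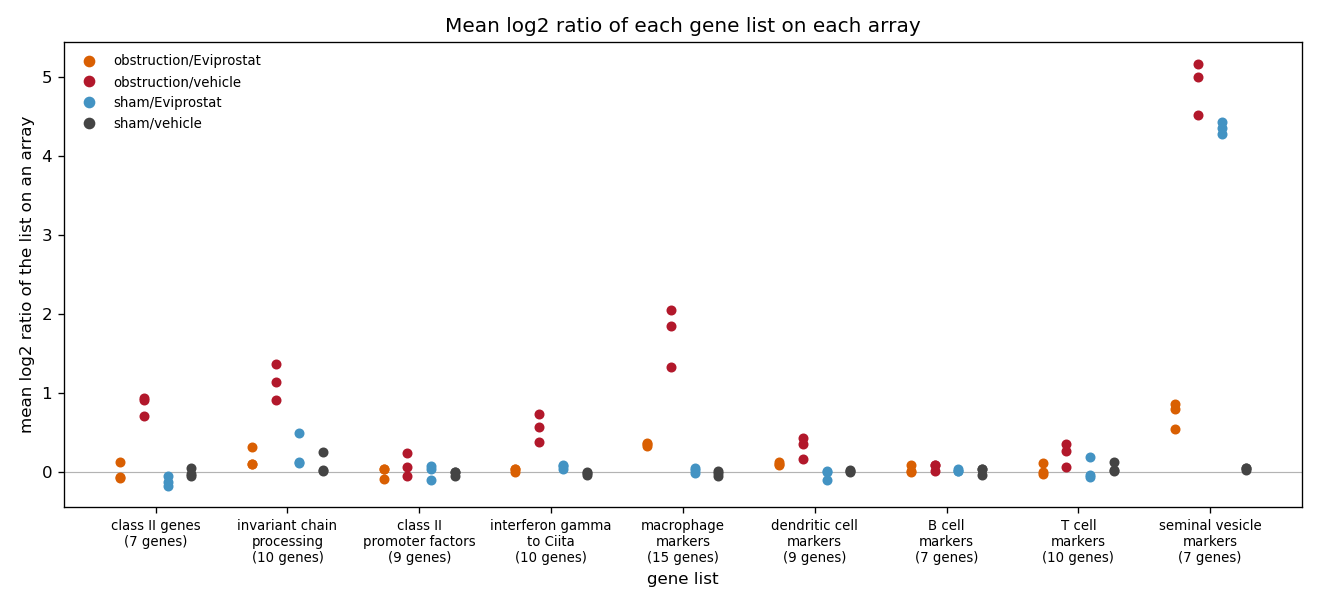
Mean log2 ratio of Cy5 over Cy3 (vertical axis) of 9 gene lists (horizontal axis) on each of the 12 arrays, coloured by group. For class II genes the obstruction/vehicle arrays lie between 0.72 and 0.94 and all other arrays between -0.17 and 0.13, macrophage markers show the same split, and seminal vesicle markers are high in obstruction/vehicle and in sham/Eviprostat.

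Markers of cells that carry class II molecules moved unevenly. All 15 measured macrophage and monocyte markers were higher with obstruction under vehicle and 13 were lower with Eviprostat in obstructed rats. The mean log2 ratio of this list was 0.34 to 0.37 in obstruction/Eviprostat, 1.33 to 2.05 in obstruction/vehicle, -0.01 to 0.06 in sham/Eviprostat and -0.04 to 0.02 in sham/vehicle. Csf1r, the macrophage growth factor receptor, rose by 1.32 and fell by 1.12, and Cd68, a macrophage lysosomal protein, rose by 1.94 and fell by 1.72 (log2). Their part in the class II differences was not tested.

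Of 9 dendritic cell markers 2 were higher, Clec10a (2.05), which macrophages also carry, and Batf3 (0.72), and 1, Clec10a, was lower with Eviprostat in obstructed rats (-1.11). Flt3, which defines the dendritic lineage, had 0.13 and Itgax had no probe by name. With slides 2 and 3 only, 1 of the 9 was higher with obstruction under vehicle and 0 were lower with Eviprostat in obstructed rats by limma. In the fit with the slide as a block 3 were higher and 1 lower with obstruction under vehicle, and 1 was higher and 2 were lower with Eviprostat in obstructed rats. B cell markers gave 0 of 7 in either comparison by limma, and 0 at an unadjusted p under 0.05. Of 10 T cell markers Cd8a passed in both comparisons (0.77 and -0.84) and no other did, but 3 of 10 were higher with obstruction under vehicle with the slide as a block, and 0 of 10 passed limma's test in either comparison with slides 2 and 3 only. Cd3e had -0.17, and Cd4, the coreceptor that binds class II, had 0.35 (limma adjusted p = 0.164).

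Other tissue markers also differed between the groups. Of 7 seminal vesicle markers, 6 were higher in obstruction/vehicle than in sham/vehicle, and 6 were higher in sham/Eviprostat than in sham/vehicle. In the latter comparison 1.21% of named genes were higher and 0.245% lower. The mean log2 ratio of the seminal vesicle markers was 0.55 to 0.86 in obstruction/Eviprostat, 4.52 to 5.17 in obstruction/vehicle, 4.28 to 4.43 in sham/Eviprostat and 0.03 to 0.06 in sham/vehicle. Of 10 prostate epithelium markers 4 were lower with obstruction under vehicle, among them Pbsn, the androgen-driven probasin gene (-1.37, with 1 obstruction/vehicle array left out by an outlier flag), and with the slide as a block 6 were lower and 1 was higher. Of 9 neutrophil markers 5 were higher with obstruction under vehicle, and S100a8, whose signal did not clear background in sham/vehicle, was at least 260-fold higher. With slides 2 and 3 only, 3 of the 9 neutrophil markers were higher. Skeletal muscle markers were lower for 6 of 7 with obstruction under vehicle, and higher for 6 of 7 with Eviprostat in sham rats. With obstruction under vehicle urothelial markers were higher for 2 of 4, and endothelial markers higher for 2 of 6 and lower for 1 (3 and 1 with the slide as a block). Their part in the class II differences was not tested.

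Genes whose log2 ratio followed Cd74 most closely over the 12 arrays were Ptafr, Slc26a4, Lcn2, Laptm5, Tyrobp, Coro1a, Nfkbia, Cdkn1a, Car4 and Pirb, with Pearson correlations of 0.982 to 0.9917 among 14631 genes compared. The arrays share the Cy3 RNA and the slides, and the obstruction/vehicle arrays stand apart, so these values describe 1 step shared by many genes. Between class II genes the correlation was 0.988 for Cd74 with RT1-Da and 0.985 for Cd74 with RT1-Db1. It was lower for Cd74 with the other members, at 0.803 for RT1-Bb, 0.682 for Ciita, 0.616 for RT1-DMa and 0.203 for RT1-Ba.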

How the data were processed

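The authors deposited spot intensity values of both dyes from the scanner software (Feature Extraction 9.5.1.1, according to the files). The deposited files also hold its log10 ratio of red over green processed signal, and a deposited table of log10 ratios for the whole series equals it. Probe positions are those of rat build rn3 in the array design. Here the background of mean signals was corrected by normexp with offset 50, log2 ratios were normalized within arrays by loess, control and outlier spots were left out, and spots of a probe were averaged. The 36097 kept probes of all 12 arrays were fitted with 4 group means in limma 3.58.1 (R 4.3.3, data.table version 1.17.8), leaving 8 residual degrees of freedom, with Benjamini-Hochberg adjustment over all kept probes and a threshold of 0.05. Probes were named through their accession and then their symbol in RefSeq's rat gene table (GRCr8). Figures used matplotlib 3.10.9 in Python 3.11.15.

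The members, the gene lists and the tests were chosen with earlier results of these data known. Named genes are all members, fixed genes of class II control and cell markers, the called genes with the greatest change in each list, and the genes most correlated with Cd74. The fit was also run on simulated data. Their noise was independent between arrays and held no slide effect, so that run does not cover deviations shared within a slide. Same-numbered arrays, which share a slide per the file headers, deviated together from their group means in all 18 pairs (correlations 0.155 to 0.779). The 36 pairs of arrays from different groups and slides had correlations of -0.702 to 0.557, so the ranges overlap. The slide was therefore also fitted as a block. The alternatives tried were the scanner's log ratio, median centring, another offset, the Cy5 level alone, other filters, the slide, the arrays in the fit and the probe of a gene. The number of arrays limits the precision. No value was taken from RT1-DMb, for which no probe was found.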

Additional observations from a re-analysis of the deposited data

Results flagged for a closer look

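For 4 class II genes the effect of Eviprostat differed between obstructed and sham rats by a test of the difference itself, the limma interaction. These calls are those of the brightest probe of each gene, and the other probes of RT1-Da and RT1-Db1 did not pass. For Cd74 the drug difference was -1.32 in obstructed rats and -0.30 in sham rats, and the drug effects differed by -1.02 (log2). The corresponding values were -1.27 and -0.29 for RT1-Da, which differ by -0.98, and -0.99 and -0.34 for RT1-Db1, which differ by -0.65. For RT1-DMa they were -1.02 and 0.46, which differ by -1.49. This last call rests on single arrays: without any 1 of 7 arrays its limma adjusted p lay between 0.0559 and 0.0962, while the blocked fit gave 4.29e-06.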

How the results depend on the processing

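Of 7 genes, 5 passed in each of the 2 leading comparisons, and leaving out 1 array at a time gave 3 to 6 for obstruction under vehicle, 3 to 6 for Eviprostat in obstructed rats, 3 to 6 for the interaction (4 as reported), 0 to 2 for obstruction under Eviprostat (1 as reported) and 0 for the drug in sham rats and for obstruction/Eviprostat against sham/vehicle. Median centring gave 2, 2, 2 and 0 for the first 4 of these. The scanner software's log ratio gave 7 for the interaction, 3 for obstruction under Eviprostat and 3 for the drug in sham rats. With the replicate block these were 6, 4 and 2, and the block changed no call of the 2 leading comparisons. Slides 2 and 3 alone gave 2 for obstruction under Eviprostat and 1 for the drug in sham rats, and an offset of 10 gave 0 for obstruction under Eviprostat. The causes were not tested. No called gene changed sign under any alternative run. Over all kept probes, 4191 were called for obstruction under vehicle, against 14481 with the scanner's log ratio, 1788 with median centring and 9125 with the block. For Eviprostat in obstructed rats 3536 were called, against 13521, 1329 and 8494. For the interaction, obstruction under Eviprostat and the drug in sham rats, 3127, 823 and 552 probes were called as reported. The scanner's log ratio called 11711, 4279 and 3423 there, and the block 7919, 3157 and 2282. Slides 2 and 3 alone called 4265, 2275 and 1135 in these comparisons. The dim Ciita probe limits what can be said of that gene.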

Other observations

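A further 6 probes are described on the array as MHC class II but carry no gene name here, and they were looked at after their values were seen. One for an RT1.D beta chain of the k haplotype, at chr20:4677081-4677139 (rn3), close to the RT1-Db1 probe that passed no test, had -0.18, -0.25 and -0.24 on the obstruction/Eviprostat arrays, 0.99, 1.12 and 1.49 on the obstruction/vehicle arrays, -0.20, -0.02 and 0.02 on the sham/Eviprostat arrays and -0.24, 0.02 and -0.01 on the sham/vehicle arrays (log2 ratios). Its obstruction/vehicle arrays did not overlap with any other, and it was 1.28 higher with obstruction under vehicle (limma adjusted p = 3.94e-05) and had -1.43 with Eviprostat in obstructed rats (limma adjusted p = 2.14e-05, log2 differences). A probe at chr20:4734730-4734789, near those of RT1-Bb, had 0.78 and -0.90 (limma adjusted p = 0.00288 and 0.00129). A probe placed on chromosome 3 was lower with Eviprostat in sham rats (-0.73, limma adjusted p = 0.0229). A probe without a position had 0.78 (limma adjusted p = 0.0645) and -0.89 (limma adjusted p = 0.0417), and the other two passed neither test.

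Class I processing genes were counted as well. Of 8, 4 were higher with obstruction under vehicle and 3 lower with Eviprostat in obstructed rats, against 9.94% and 8.09% of named genes. With the slide as a block these counts were 7 and 6, against 13.3% and 12.1% of kept probes. B2m, the shared light chain of class I molecules, had 0.73 and -0.74, and Psmb8, an immunoproteasome subunit, had 0.86 and -0.77 (log2).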
